A study of Mus musculus with 6 samples.

Results

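The neurons described here come from 2 kinds of obese mice that differ in leptin. One is the ob/ob mouse, kept on chow and called OB in the labels, which carries an inactivated leptin gene. The other is the mouse made obese by high-fat feeding, called hfd or DIO, in which the hormone is made. The nuclei compared are those that a hashtag rule assigned to vehicle treatment and not to rapamycin, an inhibitor of the mTORC1 kinase. Rapamycin and chow nuclei of the series are given beside them and also entered the clusters. Nuclei of mouse hypothalamus had been sorted for NeuN, a neuronal nuclear protein, and sequenced with 10x 3′ v3 chemistry in 3 pools (chow, DIO and OB), each holding a vehicle and a rapamycin hashtag. The labels do not give the strain, sex, age or number of mice in a pool. Ddx3y, Uty and Eif2s3y of the Y chromosome were read in both pools, while Xist gave 1 UMI (unique transcript) in OB and 3 in DIO.

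A nucleus was taken as vehicle when the log2 count of tag 2, centred on its pool mean, lay at least 1 above that of tag 1. It was taken as a neuron with at least 1 UMI of Slc17a6, Slc32a1, Gad1 and Gad2 together. The first carries glutamate and the second GABA into vesicles, and the other two make GABA. This left 1944 OB and 3163 DIO nuclei, 5107 of the 34542 barcodes in the series. They made up 35.3% (exact binomial 95% interval 34.0 to 36.5) of the 5513 OB vehicle nuclei and 66.0% (64.7 to 67.4) of the 4790 DIO vehicle nuclei. In OB 712 nuclei held only the glutamate gene, 1163 only GABA genes and 69 both, against 1237, 1670 and 256 in DIO. The nuclei were selected on the counts of these 4 genes and the tags, so their values are a description and nothing is read from them. Within 0.25 of the tag threshold lay 128 OB and 32 DIO neurons just inside and 66 and 33 just outside.

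Leptin is released by fat cells and reaches receptor-bearing neurons of the hypothalamus. Its receptor Lepr activates the kinase Jak2, which phosphorylates the transcription factor Stat3, and Stat3 switches on Socs3, a brake on the same receptor. In the arcuate nucleus leptin restrains neurons that make Agrp and Npy, which drive feeding, and supports neurons that make Pomc and Cartpt, which curb it.

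The hashtag oligonucleotides that decide which nuclei are vehicle had the same sequences in both pools, as given by the deposited key.
tag 1, rapamycin: ttcctgccattacta
tag 2, vehicle: ccgtacctcattgtt

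Promoter stretches of 3 genes are shown: a target of Stat3 and a gene of sterol synthesis, each with a motif match, and Npy, without one. All are RefSeq sequences of GRCm38.p6, 5′ to 3′ on the gene's own strand, in lower case with a motif match in capitals. The motif TTCNNNGAA, a palindrome that STAT proteins bind, was in 2306 of 32851 promoters of 250 bases before the start (7.02%). By gene it was in 2197 of 27025 (8.13%), and in 2 of 11 matched leptin-induced genes, Socs3 and Serpina3i. The motif TCACNCCAC, a form of the sterol regulatory element searched on both strands, was in 346 promoters (1.05%), in 331 of the 27025 genes (1.23%), and in 1 of 22 matched genes of the cholesterol list, Hmgcs1. Among other genes scanned, TTCNNNGAA was absent from the windows of Serpina3n, Stat3, Cartpt and Lepr, and TCACNCCAC from those of Idi1 and Insig1. A match is a description of the letters alone. The start is that of each promoter entry, which need not be the outer end of the gene's span. For Socs3, Cartpt and Lepr the windows lie inside the span. The Socs3 window ran from 117969367 to 117969616 in a span of 117966079 to 117970336. For Socs3 (chr11:117969501-117969530, minus strand) 30 bases around the match are given, for Hmgcs1 (chr13:119690101-119690350, plus strand) and Npy (chr6:49822460-49822709, plus strand) the whole window, and that of Npy holds no TTCNNNGAA.
Socs3: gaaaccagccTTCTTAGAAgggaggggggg
Hmgcs1: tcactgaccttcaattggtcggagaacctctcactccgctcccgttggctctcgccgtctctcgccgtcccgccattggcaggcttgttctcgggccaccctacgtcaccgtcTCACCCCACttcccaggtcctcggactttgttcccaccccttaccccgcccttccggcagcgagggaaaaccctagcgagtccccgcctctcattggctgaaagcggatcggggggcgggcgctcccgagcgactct
Npy: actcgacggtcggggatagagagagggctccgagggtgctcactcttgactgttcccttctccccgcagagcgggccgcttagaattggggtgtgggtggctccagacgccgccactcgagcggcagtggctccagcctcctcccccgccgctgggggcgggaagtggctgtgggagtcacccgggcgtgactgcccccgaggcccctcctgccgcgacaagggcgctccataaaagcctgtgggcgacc

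Each side of the comparison is 1 pool and 1 hashtag, with no replicate. There is therefore no test, and every interval below is an exact 95% interval for counting error only. Genotype, diet, library, depth, the version of the counting software and its gene list all differ between the pools and cannot be told apart. The OB neurons were shallower, with a median of 3573.5 UMIs against 6574, and 59.7% of them against 38.1% owed their place to a single UMI of the 4 genes. Rbfox3, which encodes the sorted antigen, was seen in 57.8% of OB and 79.5% of DIO neurons. The vehicle tag was also less clear in OB: a second caller, HTODemux, called 798 of the 1944 OB neurons vehicle (41.0%) and 1076 negative, against 95.3% called vehicle in DIO. Nuclei in glial or ependymal clusters made up 5.45% of the OB and 1.04% of the DIO neurons. Barcodes shared between libraries numbered 33, of which 1 was among these neurons.

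UMIs were summed over the neurons of each pool and divided by their total over 27514 shared genes, as counts per 1 000 000 (CPM). A gene counted as measured once the 2 sums held 50 UMIs or more between them, and as called when the CPM differed at least 2-fold. Of 14253 measured genes, 353 (2.48%) were at least 2-fold higher in OB and 211 (1.48%) at least 2-fold lower. The log2 ratio of OB over DIO had a median of −0.01, and 90% of the genes lay between −0.56 and 0.75. Above 0 lay 49.0% and below it 51.0%, the background for the list counts that follow. Among neurons with the glutamate gene alone 247 (2.03%) and 161 (1.32%) passed these limits, and among those with GABA genes alone 300 (2.36%) and 170 (1.34%). Between the rapamycin hashtags 297 (2.05%) were higher and 217 (1.49%) lower, and in the other vehicle nuclei 1194 (8.63%) and 133 (0.961%). Of the 353 higher genes, 192 (54.4%) were also called higher between the rapamycin hashtags of the same 2 libraries, which is 71.1% of the 270 called there. Of the 211 lower genes this held for 90 (42.7%, and 47.4% of 190). In the other vehicle nuclei, which failed the neuron rule, 257 of the 353 (72.8%) and 68 of the 211 (32.2%) passed the same limit. Only 321 of the 353 and 124 of the 211 held 50 UMIs or more there, and the rest could not be called. For the rapamycin hashtags these numbers were 340 and 191. The shares of the higher and lower genes are therefore not alike in what could be called. In the other nuclei 4 of the 211 were called the other way.

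**Figure D1:**
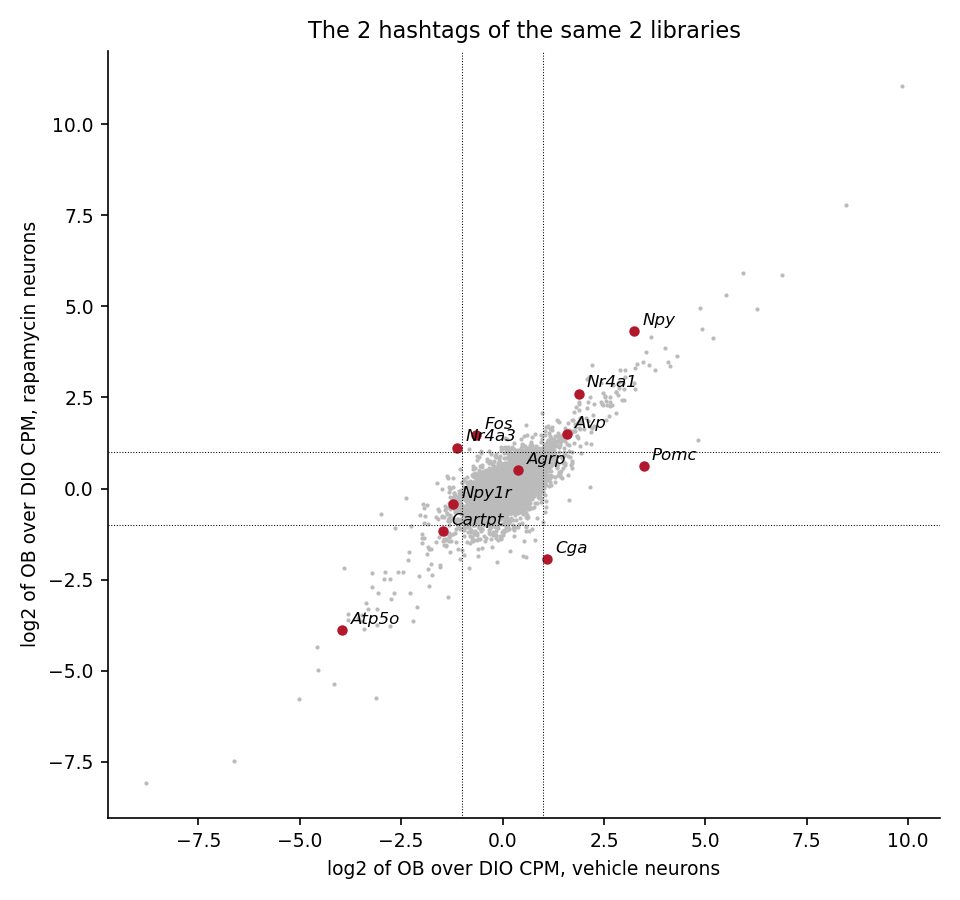
Each point is 1 of 14136 genes measured in both hashtags, with the log2 ratio of OB over DIO CPM in vehicle neurons across and in rapamycin neurons up; dotted lines mark 2-fold and red points are named genes. Npy, Avp and Nr4a1 lie to the upper right, Atp5o and Cartpt to the lower left, and Cga, Fos and Nr4a3 lie on opposite sides of 0 for the 2 hashtags. Genes with 0 UMIs in OB or DIO for either hashtag, such as Raver1 and Hgs, count among the 14136 but have no point.

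The genes given next were among the most extreme over all neurons or in both transmitter classes. They had the same direction between the rapamycin hashtags and in other nuclei, which come from the same 2 libraries and count tables. Ptgds, a prostaglandin synthase of glial and barrier cells, was at 3.75 in the neurons, 3.26 between the rapamycin hashtags and 5.89 in other nuclei. Pomc, given further on, was also among the highest. Thtpa, a thiamine triphosphatase, gave 4 UMIs in OB and 1203 in DIO, a log2 ratio of −6.63 (−8.50 to −5.26). It was −7.47 in the rapamycin neurons, −7.33 in other nuclei, and lower in 29 of the 29 clusters where it could be read. Raver1 and Hgs had 0 UMIs in OB against 408 and 350, at least 44.6-fold and 38.3-fold lower against a floor of 3 counts in the OB sum. Atp5o, a subunit of the ATP synthase, read 19.7 CPM in OB and 305 in DIO, −3.95 (−4.19 to −3.72). Pik3r3, a regulatory subunit of PI3-kinase, was at −3.48 and the mitochondrial protein gene Lyrm4 at −3.46. On the other side Maml2, a coactivator of Notch signalling, read 217 against 27.9 CPM, 2.96 (2.83 to 3.10), and was higher in 30 of 30 clusters, and the splicing regulator Nova2 was at 2.86.

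The remaining genes of this tier were Zfp935 (−5.01), Rnf26 (−4.56), Nupl1 (−3.91), Wdr74 (−3.90), Fam177a (−3.80), Nt5dc3 (−3.55) and Lats2 (−3.41) on the lower side. On the higher side they were Zmiz1os1 (4.09), Tinf2 (3.26), Srp54a (3.24), Nxpe4 (3.02), Mir670hg (3.0), Dbi (2.86) and Dynlt1a (2.81). Of the called genes with a known span, 36 of 492 (7.32%) overlapped a gene that only 1 of the 2 gene lists holds, against 297 of 13254 (2.24%) of all measured genes. In chow vehicle Thtpa read 52.8 CPM, Raver1 16.6, Hgs 17.0 and Nova2 16.9, near 52.3, 17.7, 15.2 and 15.1 in DIO vehicle. Ptgds stood further apart, at 9.25 in chow and 2.56 in DIO. Per the file headers chow and DIO were counted with Cell Ranger 6.0.0 and OB with 7.0.1. The part of the software version and the gene lists in these ratios was not tested.

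Among the 20 genes of leptin receptor signalling, 19 were measured, 3 higher and 16 lower in OB, with a median log2 ratio of −0.15 against −0.01 for all genes. One, Socs3, was at least 2-fold lower. In the rapamycin neurons the median was −0.08. Stat3 read 41.6 CPM in OB vehicle, 37.5 in OB rapamycin, 60.1 in DIO vehicle, 54.1 in DIO rapamycin, and 41.1 and 39.5 in the chow sums. Both OB values thus lay below both DIO values and near chow. The ratio was −0.53 (−0.71 to −0.35), the same −0.53 between rapamycin hashtags, and 21 of 29 clusters pointed down. Jak2, the kinase on the receptor, read 48.2 and 54.1 CPM in OB against 67.6 and 67.0 in DIO, −0.49 (−0.66 to −0.32), lower in 22 of 30 clusters. Ptpn1, a phosphatase that acts on Jak2, was at −0.33 (−0.47 to −0.19), and the adaptor gene Irs4 at −0.43 (−0.85 to −0.04). Foxo1, a transcription factor held back by insulin and leptin signalling, was at 0.35 (0.02 to 0.67) but at −0.06 when each cluster had the same weight in both pools.

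Targets of leptin were read at low counts. Of 12 listed genes 8 were measured, 2 higher and 6 lower, 2 of them at least 2-fold, with a median of −0.67, and −0.06 in the rapamycin neurons. The 8 ranged from −3.46 to 0.34, and 3 had an interval below 0. In other vehicle nuclei the median was 0.33. Against chow it was −0.12 for OB and 0.43 for DIO. Serpina3n, a serine protease inhibitor, had 2 UMIs in OB against 67 in DIO, or 0.265 CPM in OB vehicle, 0.315 in OB rapamycin, 2.91 in DIO vehicle and 1.01 in DIO rapamycin, with 0.705 and 1.21 in chow. Both OB values were the lowest of the 6, and DIO vehicle stood alone at the top. The ratio was −3.46 (−6.53 to −1.55), and −1.88 when at least 2 UMIs of the 4 transmitter genes were asked for. Socs3 had 7 UMIs against 46, 0.927 and 2.0 CPM, −1.11 (−2.50 to 0.05). Its rapamycin values were 1.26 and 1.33 CPM, and the difference between hashtags was not tested. Asb4, of a ubiquitin ligase family, was at −0.40 (−0.65 to −0.16), Arid5a at −0.81 (−1.75 to 0.02) and Bcl3, a partner of NF-kappaB, at −0.70 (−1.57 to 0.09).

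Lepr itself (chromosome 4, 101717137 to 101815352 in GRCm38.p6) was close in the 2 pools over all neurons. It read 30.1 CPM in OB vehicle and 34.3 in DIO vehicle, −0.19 (−0.41 to 0.02), with 34.2 and 31.5 in the rapamycin sums and 24.8 and 24.7 in chow. Within kinds of neurons it differed in both directions. Because Lepr and the feeding peptides help to define clusters, the values within clusters come from 40 clusters remade without 74 genes, namely the leptin, peptide and hormone lists and Corin. This remaking, and the genes given inside clusters, were chosen after values were seen.

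In the Agrp-like cluster, whose other leading genes were Fli1, Acvr1c and Calcr, Lepr was higher in OB. This cluster held 49 OB and 58 DIO vehicle nuclei and kept 365 of the 365 nuclei of the cluster named with all genes. Lepr read 513 CPM in OB vehicle and 522 in OB rapamycin, against 107 and 102 in DIO and 114 and 150 in chow. Both OB sums thus lay above all 4 others, with a ratio of 2.26 (1.70 to 2.84) from 85 and 40 UMIs, and 2.36 (1.83 to 2.92) between the rapamycin hashtags. Npy read 157 and 495 CPM in OB, 26.8 and 33.9 in DIO, and 67.9 and 128 in chow, a ratio of 2.55 (1.45 to 3.77) and 3.87 under rapamycin. Agrp stood closer, at 272 and 665 CPM in OB, 179 and 232 in DIO and 282 and 462 in chow, 0.60 (0.02 to 1.17). With vehicle called by HTODemux the ratio of Lepr in the cluster as first named was 1.65, and with every nucleus thinned to 1500 UMIs it was 3.03.

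Other genes of these nuclei went both ways or stood level. Higher in the cluster as first named were Pcsk1 at 1.36 (0.36 to 2.36) and Acvr1c at 0.85 (0.18 to 1.51). Calcr stood at 0.70 (0.06 to 1.32) there. Between the rapamycin hashtags Pcsk1 was at −0.05, Acvr1c at −0.05 and Calcr at −0.27. In the remade cluster Stat3 was at 72.5 and 106 CPM in OB against 182 and 212 in DIO and 174 and 156 in chow, −1.33 (−2.35 to −0.43). Corin, a membrane protease that marks Agrp neurons, was at 54.3 and 95.5 against 201 and 229, −1.88 (−3.07 to −0.88), and at −1.16 with HTODemux in the cluster as first named. Insr, the insulin receptor, stood at 127 and 126 CPM in the vehicle sums, 0.01 (−0.80 to 0.78). Foxo1 was at 36.2 and 153 CPM in OB against 26.8 and 39.6, a ratio of 0.44 (−1.31 to 2.04) for vehicle and 1.96 (1.06 to 2.94) for rapamycin.

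Outside the Agrp-like cluster as first named, Lepr lay below DIO, at 19.4 against 33.1 CPM, −0.78 (−1.04 to −0.52). Of the 11 remade clusters with at least 20 Lepr UMIs, 9 were lower and 2 higher in OB, the Agrp-like cluster among the latter. The cluster led by Mbnl3, Erg and Colec12, with 32 OB and 73 DIO nuclei, held the most Lepr in DIO. There Lepr read 141 and 144 CPM in OB, 425 and 348 in DIO and 158 and 315 in chow, −1.60 (−2.49 to −0.82), and −1.27 (−2.14 to −0.51) for rapamycin. Stat3 in it was at 50.2 and 48.1 CPM in OB against 183 and 199 in DIO and 67.8 and 117 in chow, −1.86 (−3.52 to −0.59), and at −0.79 in the cluster as first named when tag 2 had to lead by 2. Cartpt was at 40.2 CPM (4 UMIs) in OB vehicle and 0 in OB rapamycin, against 218 and 297 in DIO and 67.8 and 80.5 in chow, −2.44 (−4.34 to −1.04), but at −0.67 with HTODemux. Serpina3n had 0 UMIs in OB vehicle and 21 in DIO vehicle, at least 1.45-fold lower. It had 2 UMIs in DIO rapamycin and 0 in OB rapamycin and in both chow sums, so only the DIO vehicle sum stood apart.

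The cluster led by Tbx3os1, Npy5r and Npy1r took in 98.8% of the nuclei first named Pomc-like, but these made up only 27.6% of its 601 nuclei. The cluster as first named held 8 OB and 62 DIO vehicle nuclei, so the mix of nuclei in the remade cluster differed between the pools. In the remade cluster, with 47 OB and 128 DIO nuclei, some genes tied to leptin were lower in OB and others were not clear of 0. Jak2 was at −0.55 (−1.47 to 0.26), Foxo1 at −0.35 (−3.54 to 1.80) and Insr at −0.02 (−0.71 to 0.62). Stat3 read 29.4 and 32.6 CPM in OB against 122 and 123 in DIO, with 76.5 and 67.3 in chow, so that OB lay lowest and DIO highest, −2.05 (−3.70 to −0.78). Asb4 was at 47.1 and 65.2 CPM against 196 and 120, −2.06 (−3.29 to −1.04), and Lepr at 23.5 and 35.9 against 76.0 and 40.4, −1.69 (−3.61 to −0.27) on 4 and 66 UMIs. Between the rapamycin hashtags Lepr was at −0.17 (−1.29 to 0.83). In the Pomc-like cluster as first named it was at −0.20 (−2.12 to 1.23) for vehicle and 0.88 (−0.45 to 2.02) for rapamycin, so its lower value there was not seen in every reading. Pomc read 94.1 and 111 CPM against 295 and 222 in DIO and 291 and 242 in chow, −1.65 (−2.48 to −0.92). Cartpt had 0 UMIs in OB vehicle against 83 in DIO, at least 5.41-fold lower, and read 6.52 against 81.9 CPM in the rapamycin sums. A cluster led by Ttc6, Lmx1a and Lmx1b had Lepr at −0.96 (−1.85 to −0.17), and one led by Hmcn2, Hydin and Rai14 at −0.32 (−1.09 to 0.40).

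**Figure D2:**
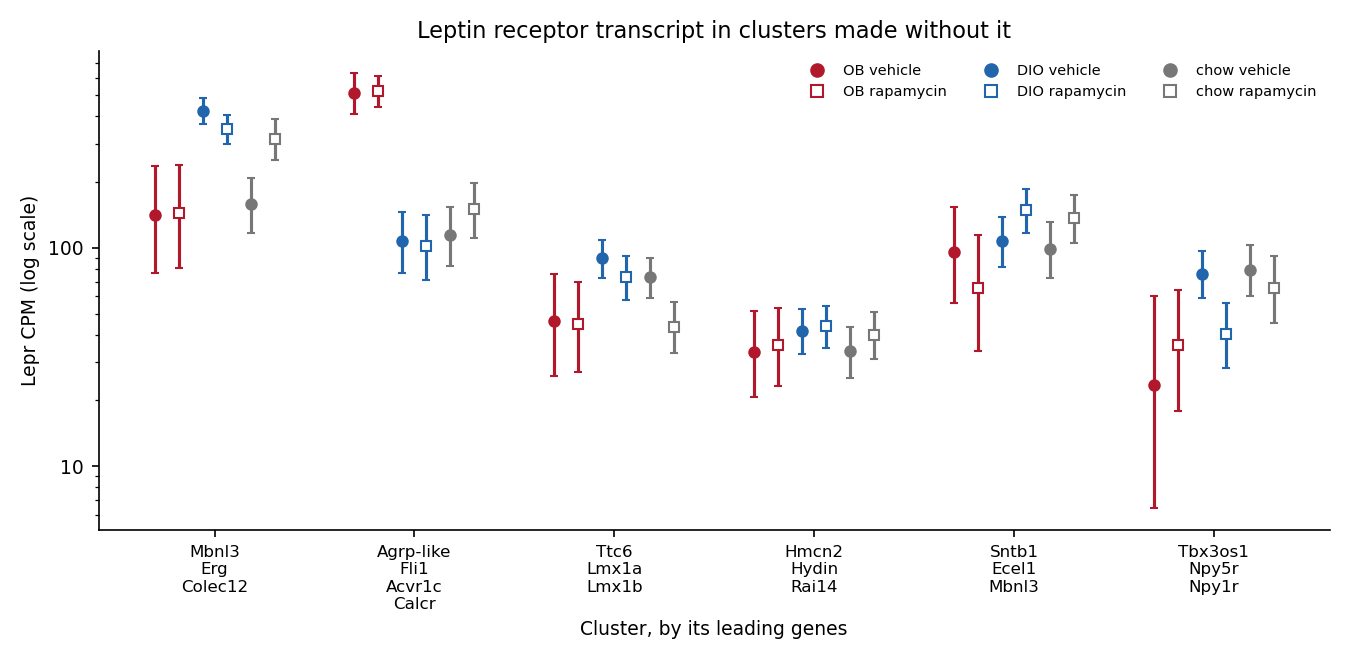
Lepr CPM on a log scale in the 6 remade clusters with the most Lepr UMIs, for each pool (colour) and hashtag (filled vehicle, open rapamycin); bars are exact 95% Poisson intervals for counting error. In the Agrp-like cluster both OB points, 513 and 522, stand above the others, and in the cluster led by Mbnl3, Erg and Colec12 they stand at 141 and 144 under 425 and 348 in DIO.

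Of the peptides that stimulate feeding, 8 of 14 were measured, 5 higher and 3 lower, with a median of 0.22. Npy (chromosome 6, 49822710 to 49829507) was the only one at least 2-fold higher. Over all neurons it read 8.21 CPM in OB vehicle and 19.2 in OB rapamycin, 0.869 and 0.967 in DIO, and 2.45 and 2.79 in chow. OB lay above chow and DIO below it, with a ratio of 3.24 (2.49 to 4.05) on 62 and 20 UMIs, 4.31 for rapamycin and 4.61 when thinned. Other vehicle nuclei had it at 2.52, and neurons outside the Agrp-like cluster at 4.87 against 0.442 CPM, 3.46 (2.42 to 4.64). Agrp read 70.8 and 86.1 CPM in OB, 54.0 and 60.9 in DIO and 52.6 and 57.2 in chow, 0.39 (0.24 to 0.54). The Agrp-like cluster held 8.22% of the OB and 5.39% of the DIO Agrp UMIs, and outside it the ratio was 0.35.

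Other stimulating peptides were mixed. Pdyn, the dynorphin precursor, was at 1.72 against 4.0 CPM, −1.22 (−2.18 to −0.37), and −0.51 with HTODemux. Gal, the galanin gene, was at 0.58 (−0.11 to 1.25) here and 1.75 between rapamycin hashtags. Hcrt, the orexin precursor, was level over all neurons at 0.05 (−0.28 to 0.38). In the orexin-like cluster of 14 and 39 nuclei, it read 971 against 579 CPM, 0.75 (0.31 to 1.17). Pmch, melanin-concentrating hormone, was at −0.51 (−0.82 to −0.22) over all neurons and 0.67 (0.17 to 1.13) within its own cluster, which had only 7 OB nuclei against 45.

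Of the peptides that restrain feeding, 8 of 19 were measured, 4 in each direction, with a median of 0.14. Cartpt (chromosome 13, 99898483 to 99910179) was lower in OB. It read 8.47 and 9.03 CPM in OB, 23.6 and 20.4 in DIO, and 24.3 and 16.9 in chow, so both OB sums lay under all 4 others. The ratio was −1.48 (−1.87 to −1.10), from 43 OB and 218 DIO nuclei with a UMI, and −1.18 for rapamycin. It was −2.33 with at least 2 transmitter UMIs asked for and −1.02 with HTODemux. The classes and clusters were not alike. Cartpt was at −2.02 (−2.62 to −1.47) in GABAergic and −0.41 (−1.02 to 0.16) in glutamatergic neurons. In the remade melanin-concentrating hormone cluster it was at 0.77 (−0.19 to 1.60) for vehicle and 2.74 (1.88 to 3.57) for rapamycin.

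Pomc, the melanocortin precursor, was higher over all neurons, and lower inside the cluster led by Tbx3os1 as given above. It read 222 CPM in OB vehicle, 52.0 in OB rapamycin, 19.9 and 34.0 in DIO, and 16.6 and 13.9 in chow, 3.48 (3.33 to 3.63), but 0.61 for rapamycin. Of the 1673 OB UMIs, 1349 (80.6%) lay in 15 nuclei with at least 20 each, up to 316, against 1 such nucleus in DIO. Without nuclei of glial or ependymal clusters the values were 76.6 and 19.9 CPM, 1.95 (1.77 to 2.13), and without those with at least 20 Pomc UMIs 43.3 and 18.3, 1.24. Pituitary transcripts stood beside it: 5 of 5 measured pituitary markers were higher, median 1.10, with Gh at 101 against 11 UMIs, and the summed CPM of the 12 markers was 34.4 in OB vehicle, 13.8 in OB rapamycin, 9.60 and 11.2 in DIO. The part of other cells' RNA in the Pomc value was not tested.

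Further members of this group were Bdnf, a growth factor that acts on feeding, at −0.62 (−0.95 to −0.29) and lower in 8 of 10 clusters, and Nts, neurotensin, at −0.63 (−1.23 to −0.07). Tac1, the substance P precursor, was at 0.51 (0.18 to 0.83). Crh had 1 UMI in OB and 33 in DIO, −3.44 (−8.78 to −0.86). Between the rapamycin hashtags Crh had 7 and 22, −0.27 (−1.74 to 1.01). Trh had 18 and 24, 1.19 (0.22 to 2.13). Both genes were below the count for a measured gene.

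**Figure D3:**
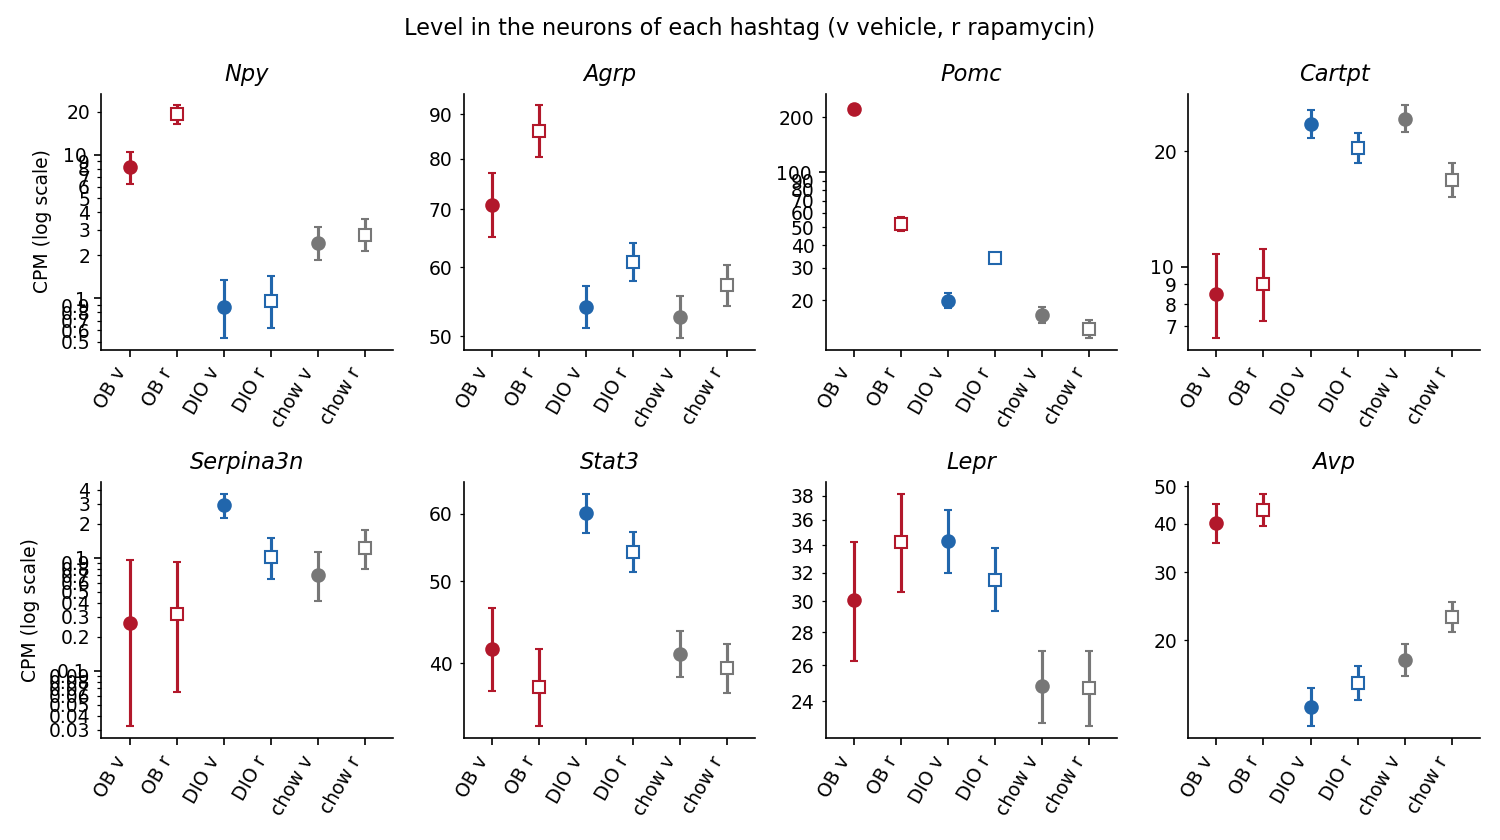
CPM on a log scale of 8 genes summed over the neurons of each pool and hashtag (v vehicle, r rapamycin), with exact 95% Poisson intervals for counting error. Npy and Avp are higher in both OB sums than in the 4 others, Cartpt and Serpina3n lower, Stat3 is at 60.1 and 54.1 in DIO and at most 41.6 elsewhere, and only the vehicle sum of OB has Pomc at 222.

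Of 12 hormone and releasing factor genes 6 were measured, 5 higher and 1 lower, 2 of them at least 2-fold, with a median of 0.41. Avp, vasopressin, read 40.1 and 43.5 CPM in OB, 13.4 and 15.5 in DIO, and 17.8 and 23 in chow, 1.58 (1.35 to 1.81) and 1.48 for rapamycin. In the paraventricular-like cluster, remade without Avp, it read 1277 and 1577 CPM in OB, 250.1 and 755 in DIO and 565 and 1604 in chow, 2.35 (2.04 to 2.66). Outside the cluster as first named it read 16.6 against 5.92 CPM, 1.49 (1.12 to 1.85). Sst, somatostatin, read 9.14 and 12.2 CPM in OB, 2.52 and 4.63 in DIO and 7.30 and 7.56 in chow, 1.86 (1.33 to 2.39). DIO was the low pool for Sst, and in the cluster led by Abi3bp, Pth2r and Dnah11 it read 127 against 28.7 CPM, 2.14 (0.96 to 3.49), with 110 in chow. Oxt, oxytocin, was at 0.28 (−0.23 to 0.77), and at 1.26 for rapamycin.

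Among 34 receptors for feeding signals 25 were measured, 4 higher and 21 lower, with a median of −0.26, and −0.12 in rapamycin neurons. Npy1r, a receptor for neuropeptide Y, read 4.77 and 6.51 CPM in OB, 11.2 and 8.74 in DIO, and 10.2 and 6.39 in chow, −1.23 (−1.77 to −0.72), and was lower in 9 of 10 clusters. With each cluster given the same weight in both pools it was at −0.85. Between the rapamycin hashtags it was at −0.42 (−0.86 to −0.01). Npy2r was at −0.49 (−1.01 to 0.01), Npy5r at −0.31 (−0.67 to 0.05), the corticotropin-releasing hormone receptor Crhr1 at −0.58 (−0.99 to −0.19) and Insr at −0.22 (−0.33 to −0.11). Ramp1, a coreceptor for calcitonin peptides, was at 1.34 (0.69 to 1.98) but at −0.13 when nuclei were thinned. The somatostatin receptor Sstr2 was at 0.69 (0.26 to 1.11). Mc4r, the melanocortin receptor of appetite control, had 8 UMIs against 40, −0.71 (−2.02 to 0.40), and was not measured by the rule. Between the rapamycin hashtags it was at 0.67 (−0.07 to 1.38).

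The machinery that cuts and packs peptides differed little. Of 18 measured genes 5 were higher and 13 lower, none at least 2-fold, with a median of −0.09. Pcsk1, which cleaves Pomc and other precursors, was at 34.8 against 46.6 CPM, −0.42 (−0.62 to −0.23), and at −0.09 with HTODemux. Its inhibitor Pcsk1n was at 0.57 (0.39 to 0.75), and Pam, the amidating enzyme, at 0.00 (−0.05 to 0.05). Insulin and IGF signalling had 6 of 25 genes higher and 19 lower, median −0.09. Igf1 was at −0.64 (−1.01 to −0.27) and Igfbp5, which binds it, at 0.66 (0.26 to 1.06).

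Sterol synthesis genes were mostly lower in OB. Of 31 genes of cholesterol and fatty acid synthesis 30 were measured, 7 higher and 23 lower, 1 of them at least 2-fold, with a median of −0.23, and −0.13 for rapamycin. Idi1, an isomerase of the isoprenoid pathway, read 8.61 and 8.82 CPM in OB, 15.4 and 12.7 in DIO, and 15.9 and 12.1 in chow, −0.84 (−1.25 to −0.46), and was lower in 14 of 16 clusters. Both OB sums lay under the other 4. Hmgcs1, whose promoter is shown above, read 28.6 and 22 CPM in OB, 38.0 and 31.9 in DIO and 40.7 and 33.4 in chow, −0.41 (−0.63 to −0.19). Sqle, an epoxidase of the sterol pathway, was at −0.50 and lower in 19 of 24 clusters, Lss at −0.60 and Insig1, a sterol sensor, at −0.71 (−1.12 to −0.32). Hsd17b7 was at 2.65 against 7.13 CPM, −1.43 (−2.18 to −0.75), with −0.47 for rapamycin. The desaturase genes Scd2 (0.34) and Fads2 (0.58) stood on the other side.

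In the endoplasmic reticulum stress list 8 of 24 measured genes were higher and 16 lower, median −0.17. Ddit3, which encodes the stress factor CHOP, was far from the rest. It read 4.37 and 6.09 CPM in OB, 17.4 and 15.5 in DIO and 21.7 and 19.3 in chow, −1.99 (−2.55 to −1.48), and was lower in 15 of 15 clusters and at −1.31 in other nuclei. Manf, a secreted survival factor, was at 0.47 (0.36 to 0.59) and Atf4, which acts above Ddit3, at 0.53 (0.21 to 0.85).

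Immediate-early genes, which mark recent activity, split: 5 of 12 higher, 7 lower, median −0.10, and 0.67 for rapamycin. Nr4a1 read 7.81 and 6.62 CPM in OB, 2.13 and 1.09 in DIO and 2.12 and 1.80 in chow, 1.88 (1.30 to 2.45), or 2.51 when thinned. Its relative Nr4a2 was at 3.84 against 7.91 CPM, −1.04 (−1.66 to −0.47), and −1.09 for rapamycin. Npas4 was at −0.84 (−1.42 to −0.31), with 0.07 for rapamycin.

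Ribosomal protein and mitochondrial genes stood higher in OB than in DIO, but not all alike against chow. Of 75 cytosolic ribosomal protein genes 70 were higher and 5 lower, 7 at least 2-fold higher, median 0.63, with 0.65 in rapamycin neurons and 0.86 in other nuclei. Rplp1 was at 19.1 against 6.82 CPM, 1.48 (1.15 to 1.82), in 13 of 13 clusters. The median of DIO over chow for this list was −0.47, so DIO was the low pool of the 3. Of 62 nuclear genes of oxidative phosphorylation 55 were higher, median 0.30. Their median was −0.01 for OB over chow and −0.40 for DIO over chow, so here too DIO was the low pool. All 10 measured mitochondrially encoded genes were higher, median 0.72, and mt-Co3 read 51.5 against 18.4 CPM, 1.48 (1.28 to 1.69). For this list the median was 1.34 for OB over chow and 0.49 for DIO over chow. Mitochondrial UMIs made up 0.0176% of the OB and 0.00847% of the DIO neurons' UMIs. Across measured genes ordered by the length of their span, in 5 equal groups, the median ratio was 0.20 in the shortest group and −0.08 in the longest. The part of transcript length in these medians was not tested.

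Markers of some other cells were higher in the OB neurons as well. All 10 measured astrocyte markers were higher, median 1.05, with a summed CPM of 188.8 and 161.5 in OB against 115.3 and 96.0 in DIO, and Slc1a3, a glial glutamate carrier, at 195 against 124 UMIs. All 7 measured oligodendrocyte markers (median 1.14) and 6 of 7 ependymal markers (median 1.07) pointed the same way, and no marker of these lists was at 0 in OB, while 1 ependymal marker was at 0 in DIO. Of the measured microglial markers 1 was higher and 2 lower (median −0.09), and of those of oligodendrocyte precursors 1 and 1 (median −0.03). The 1 measured endothelial marker was at 0.01 and the 1 measured pericyte or fibroblast marker at 0.19. All 5 histaminergic markers were lower, median −0.56, with Hdc, which makes histamine, at 29.0 against 49.4 CPM and 19.9 in chow vehicle. The clock genes (10 higher, 9 lower, median 0.03), the mTORC1 genes (17 and 20, −0.02) and the autophagy genes (19 and 20, median 0.00 after rounding) stood close to the median of all genes.

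**Figure D4:**
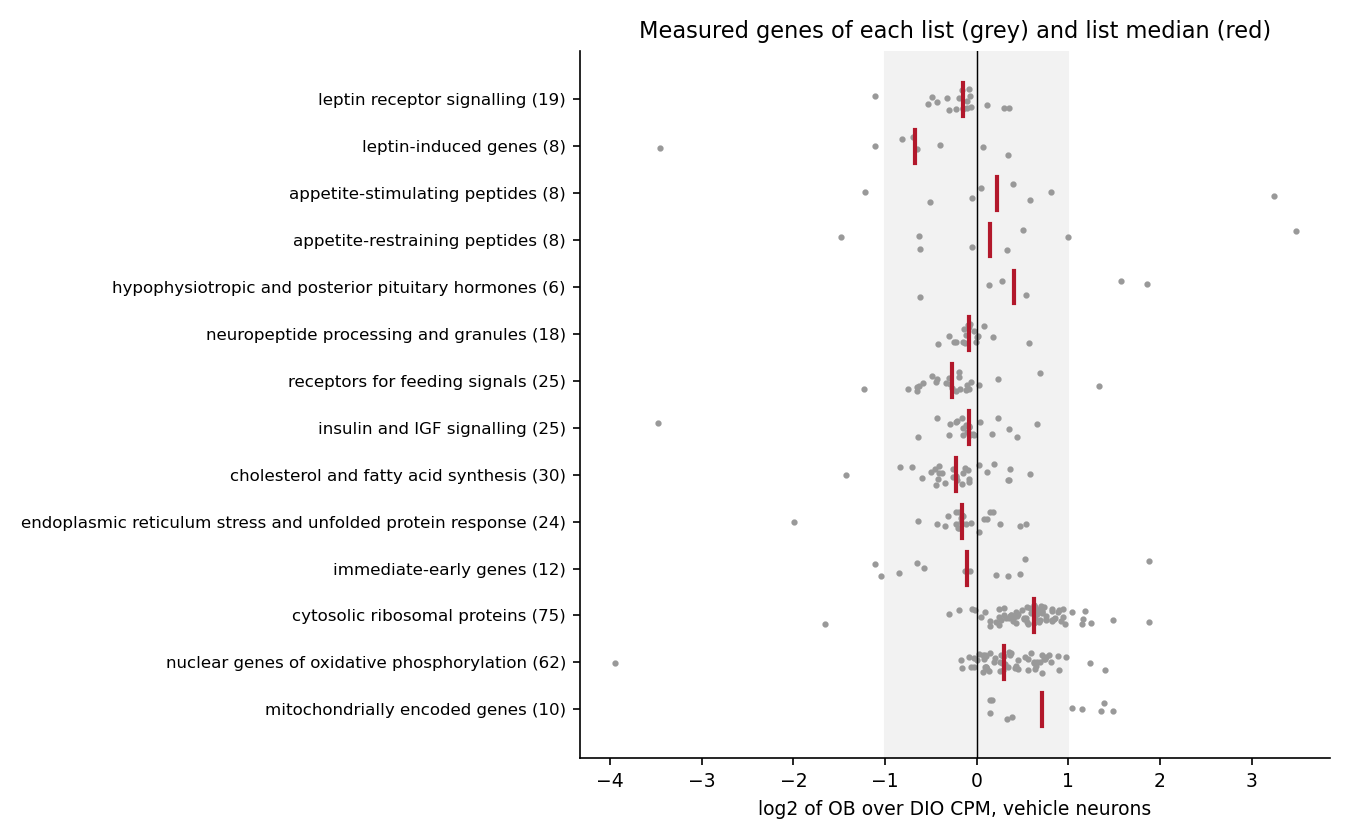
Grey points are the measured genes of each list by log2 ratio of OB over DIO CPM in vehicle neurons, red bars the list medians, the shaded band the range under 2-fold, and numbers in brackets the measured genes. Leptin-induced genes have the lowest median, −0.67, over 8 genes from −3.46 to 0.34. Mitochondrially encoded and ribosomal protein genes have the highest, 0.72 and 0.63.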

How the data were processed

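The authors used Cell Ranger to make the deposited tables, in which each barcode has a raw UMI count for every gene and a count for every hashtag. The labels give version 6.0.0 and mm10, while per the file headers OB was counted with 7.0.1. Whether introns were counted is not given in the sources used here. The OB list has 31053 genes and the DIO list 27998; the 27514 shared by Ensembl identifier were used, leaving out 1.40% of OB and 0.265% of DIO neuron UMIs. Totals were 7658867 UMIs (OB) and 23071226 (DIO). 3 counts are 0.397 CPM in OB and 0.130 in DIO.

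Counts were summed per pool and hashtag. Intervals are exact (Clopper-Pearson for ratios and shares, Poisson for levels). With 1 pool per group no test was possible, and the UMIs bear counting error only. No doublets were removed beyond the tag rule. Leiden clusters (Python 3.11.15, scanpy 1.11.5, leidenalg 0.10.2) used 3000 variable genes scaled within pools, 40 components, 20 neighbours and resolution 1, and named from at least 3 markers. HTODemux was run in Seurat 5.3.0 and TMM in edgeR 4.0.16 (R 4.3.3). The interval code and the 2-fold call were run on simulated Poisson counts of summed genes, the model that the intervals assume. The tag rule, the neuron rule and the summing were not part of that run.

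Genes were named if among the 12 highest or 12 lowest with at least 200 UMIs, or the 10 most extreme in both glutamatergic and GABAergic neurons with at least 100 UMIs in each; 12 feeding genes and list members were added, and clone names were left out. Some genes the rule names are not reported here. Members and lists were chosen with earlier results of these data known. Alternatives changed the tag rule, the neuron rule, depth, cell makeup, scaling and the gene filter. The remade clusters and the sum without Pomc-rich nuclei were added after the data were seen.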

Additional observations from a re-analysis of the deposited data

Results flagged for a closer look

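The ratios of OB over DIO of 5 genes pointed opposite ways in parallel groups of nuclei. None of these differences was tested, since each group is 1 pool and 1 hashtag. Cga, the shared subunit of pituitary glycoprotein hormones, was at 1.10 (0.46 to 1.73; 38 and 54 UMIs) in vehicle and −1.94 (−3.11 to −0.95; 9 and 90 UMIs) in rapamycin neurons. Nr4a3 was at −1.11 (12 and 79 UMIs) and 1.13 (0.49 to 1.75; 41 and 49 UMIs). Fos was at −0.65 (27 and 129 UMIs) and 1.47 (0.75 to 2.19; 36 and 34 UMIs). The Fos values were 3.58 and 3.78 CPM in OB and 5.61 and 1.37 in DIO, so only the DIO hashtags stood apart.

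Lepr was at 2.28 in the Agrp-like cluster and −1.61 in the cluster led by Mbnl3, Erg and Colec12. Pomc was at 5.43 (4.28 to 6.90) in the cluster led by Pth2r and Abi3bp. Its 144 OB UMIs there lay in only 4 of 55 nuclei, and its 6 DIO UMIs in 6 of 62. In the remade form of that cluster Pomc was at 1.60 (−0.27 to 3.60) between the rapamycin hashtags. In the Pomc-like cluster of 8 OB and 62 DIO nuclei the vehicle ratio of Pomc was −1.87 (−3.51 to −0.63). Both pairs are from the clusters made with all variable genes.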

How the results depend on the processing

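The counts of genes at least 2-fold apart, 353 higher and 211 lower, were 160 and 72 of 8728 measured genes when every nucleus was thinned to 1500 UMIs, 668 and 404 of 16161 with a minimum of 20 UMIs, and 135 and 64 of 10977 with a minimum of 200, each with another number of genes tested. The other 18 counts stayed within 1.5 times. Ramp1 turned from 1.34 to −0.13 when thinned. Of the values for lists and single genes, 609 stayed within their interval or range and 29 left it without a turn of a called direction. The 609 include alternatives that could hardly move a value. The TMM factors were 0.998 for OB and 1.002 for DIO, and the median ratio set to 0 was −0.01 before. For small lists the range allowed was wide, −3.46 to 0.34 for leptin-induced genes. Among the 29, Lepr over all neurons moved from −0.19 to 0.11 with at least 2 transmitter UMIs asked for, and Avp lay between 1.18 and 2.0. The cause was not tested. HTODemux left 825 OB and 3016 DIO neurons, and thinning 1102 and 1327. Values with under 10 UMIs, such as Socs3, Serpina3n and Pdyn after thinning, are not given. No paired analysis was possible because each group has 1 pool, with no replicate to leave out or to pair. Socs3, Serpina3n, Mc4r, Crh and Trh have OB sums of at most 18 UMIs and wide counting intervals.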
